A study of Mus musculus with 2 samples.

Results

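Satb1 lies on the minus strand of chromosome 17 (chr17:51875512-51972615 in mm9, ENSMUSG00000023927.7), and the Runx1 peaks around it in mouse thymocytes are described here together with its LUAT, the long upstream antisense transcript that is read away from its promoter. All Runx1 peaks with a centre within 500 kb of the gene body were taken, which gave 2 of the 3531 peaks of the list. Because the peaks were chosen by their position, the positions are a description and no test was made on them. CD4+ CD8+ double-positive (DP) thymocytes were sorted magnetically from the thymus of C57BL/6 mice, and their chromatin was either precipitated with 10 μg of anti-Runx1 antibody or sequenced as input without antibody. There was 1 library for each, made with 15 cycles of PCR and sequenced on AB SOLiD instruments, so no spread between replicates exists. The study's methods give for the Runx1 antibody the catalogue number that they also give for an antibody to the histone mark H3K79me2, whereas the sample labels give another number and name it as anti-Runx1. The lists hold positions and scores but no reads, so depth was unknown, the identity of the sorted cells could not be checked against expression of their markers, and all intervals cover counting error only.

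SATB1 is a nuclear protein that binds AT-rich DNA and organises chromatin in thymocytes, where it is abundant and is required for normal T-cell development. Runx1 is a DNA-binding factor of the RUNX family, active from the earliest T-cell precursors onwards, and its core recognition sequence reads TGTGGT. At divergent promoters the coding gene and an antisense transcript start close to each other and are read in opposite directions. For Satb1 the LUAT is on the plus strand and extends away from the gene into the intergenic region upstream of it.

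Of the 2 peaks, the first lay on the distal start site of Satb1 and had a score of 26, and it is called the promoter peak below. Its position was chr17:51972531-51972717, with the centre at 51972624. The second lay in the intergenic region beyond the 3' end of the gene, at chr17:51546430-51546616 with the centre at 51546523, and had a score of 18; it is called the downstream peak. Both were 187 bp wide. No input peak was found in the same 1097 kb, against 740 input peaks in the genome.

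The sequences that bear on these peaks are given 5' to 3' from NCBIM37 (mm9). The first is the stretch between the distal Satb1 start site and the start of the LUAT, read on the minus strand (chr17:51972616-51972753), with the bases covered by the promoter peak in capitals. The next holds the first bases of the distal first exon, on the minus strand (chr17:51972596-51972615), with an E-box and an ETS match in capitals. The third is the downstream peak on the plus strand, and the last is the nearest peak beyond the 500 kb limit on the upstream side, on the plus strand (chr17:52490675-52490861), shown because it contains the motif that the promoter peak lacks; capitals mark motif matches in both. A match on the strand opposite to the one printed appears as its reverse complement, so that the ETS sequence AGGAAG reads CTTCCT, the E-box CACCTG reads CAGGTG and the GATA sequence AGATAA reads TTATCT.
Distal start site to LUAT: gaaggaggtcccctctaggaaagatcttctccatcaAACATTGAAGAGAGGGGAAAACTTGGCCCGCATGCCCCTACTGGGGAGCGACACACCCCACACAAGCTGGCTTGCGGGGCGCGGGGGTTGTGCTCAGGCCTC
Distal first exon: tCACCTGaCTTCCTcctccg
Downstream peak: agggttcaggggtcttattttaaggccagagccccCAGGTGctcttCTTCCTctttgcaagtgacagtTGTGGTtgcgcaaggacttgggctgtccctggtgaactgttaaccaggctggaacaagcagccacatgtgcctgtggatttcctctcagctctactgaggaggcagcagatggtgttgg
Nearest peak beyond the upstream limit: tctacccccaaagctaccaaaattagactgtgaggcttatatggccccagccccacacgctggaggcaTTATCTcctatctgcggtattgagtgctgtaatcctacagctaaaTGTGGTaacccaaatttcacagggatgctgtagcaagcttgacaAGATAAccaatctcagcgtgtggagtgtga

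The promoter peak covered the distal start site, that of the transcript Satb1-005 at 51972615. Its centre was 9 bp upstream of this start site, 102 bp of the peak (54.5%) were upstream of it, and the other 85 bp were in the first exon, which is 5' untranslated. A Runx1 peak centre within 10 bp of a start site was found for 47 of 22247 protein-coding genes (0.211%), a window set with this distance known. The centre was 652 bp upstream of the proximal start site that the study lists for the other RefSeq transcript, which is 643 bp from the distal one. The GENCODE start site closest to this proximal one, that of Satb1-001 at 51971997, was 627 bp from the centre. Satb1-008, which starts at 51971344, was 1280 bp away. GENCODE lists 13 protein-coding Satb1 transcripts with a complete 5' end and 12 distinct start sites over 23699 bp, so the peak lay at the upstream extreme of an extended set of starts. The peak covered 1 of the 13 starts, 3 were within 5 kb of its centre, and the other 10 were 6711 to 23708 bp away.

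The LUAT of the list made from DN and DP thymocytes starts upstream of the distal start site on the other strand, with 138 bases between them. The promoter peak covered 102 of these bases, those next to the distal start site. Its upstream edge was separated from the LUAT start by 36 bases, and its centre by 130 bp. No Runx1 or input peak was centred within the LUAT, whose far end was 31161 bp upstream of the distal start site. The genome held 1.33 Runx1 peaks per Mb, so a stretch of this length would seldom hold one. Other LUATs were not counted. No Runx1 or input peak was centred within the 97.1 kb of the Satb1 body. A Runx1 peak centre in the body was found for 1449 of 22247 genes (6.51%). The LUAT is not annotated as a gene in the GENCODE release used. The place of the peak relative to the LUAT depended on the transcript model. In the model from DN thymocytes alone, the peak centre was 299 bp inside the LUAT, and in the multi-tissue model the LUAT started 249 bp beyond the centre. The distance to the distal Satb1 start site did not depend on this choice.

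**Figure D1:**
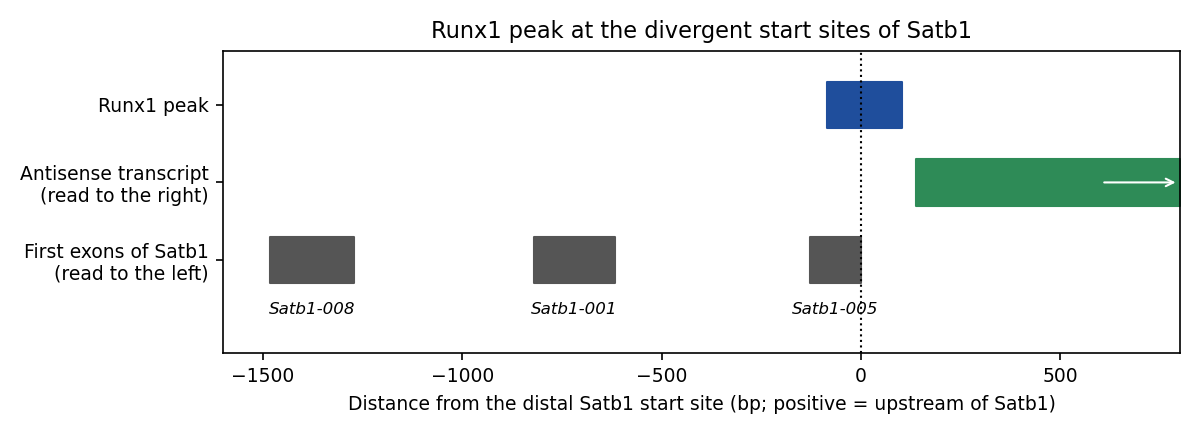
The x axis gives the distance in bp from the distal Satb1 start site (dotted line, positive upstream of Satb1), with the Runx1 peak in blue, the start of the LUAT model from DN and DP thymocytes in green and the first exons of 3 Satb1 transcripts in grey. The peak spans the distal start site and ends 36 bases before the LUAT.

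With 7.65% of all Runx1 peaks (270 of 3531) centred within 100 bp of a protein-coding start site, the Satb1 locus had 1 of its 2 peaks there. Read from the genes, 293 of 22247 (1.32%) had a peak centre within 100 bp of a start site, 700 (3.15%) had one within 1 kb and 1114 (5.01%) had one within 5 kb. Read from the peaks, 973 (27.6%) were within 5 kb of a start site, again 1 of the 2 at Satb1. The scores of the list ranged from 14 to 129 with a median of 18, and many peaks shared a score. A score of at least 26 was reached by 785 peaks (22.2%), of which 158 had exactly this score. Among the 270 peaks at start sites, 45 (16.7%) reached 26, and their median score was 18 (quartiles 16 and 21). The promoter peak was thus above the upper quartile of the whole list, which is 23, and far below the maximum. The downstream peak was at the median: 2007 peaks (56.8%) had a score of at least 18, and 640 shared this value.

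**Figure D2:**
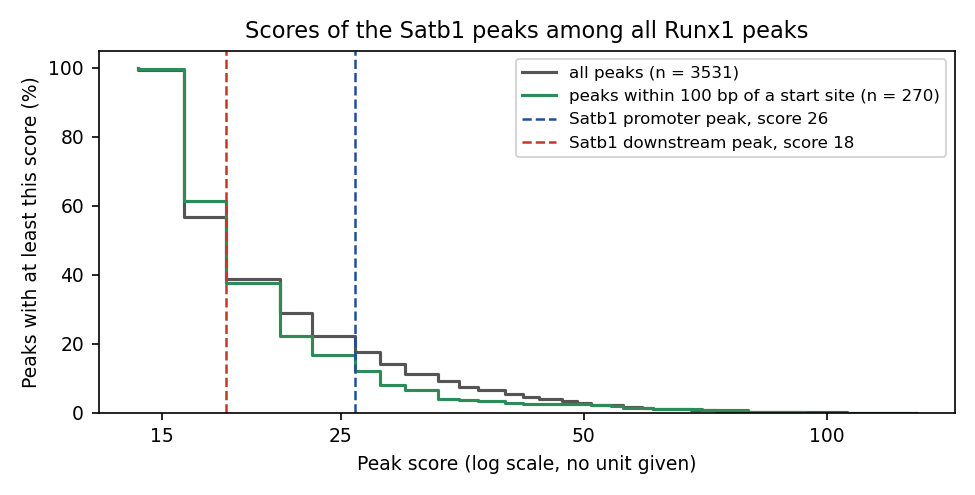
The y axis gives the percentage of Runx1 peaks with at least the score on the x axis (log scale, no unit), for all 3531 peaks in grey and for the 270 peaks within 100 bp of a start site in green. The dashed lines mark the promoter peak at 26, reached by 22.2% of all peaks, and the downstream peak at 18, reached by 56.8%.

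The promoter peak was rich in G and C. Its GC content was 62.6%, and 215 of 3531 peaks (6.09%) were at or above this value, the median over all peaks being 54.0%. Peaks at start sites had a median of 60.2% (quartiles 57.2 and 63.1%), so the Satb1 peak was within their middle range. It held 9 CpG dinucleotides, against a median of 4 in all peaks and of 13 in peaks at start sites. The 1 kb around the distal start site had a GC content of 66.5% and an observed-to-expected CpG ratio of 0.688, compared with medians of 55.1% and 0.561 over 22247 protein-coding genes; 11% of genes had at least this GC content and 36.8% at least this ratio. The downstream peak had 54.0% GC, the median of the list, and 1 CpG.

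The RUNX motif TGTGGT was searched on both strands within 100 bp of each peak centre. It was present in 1 of the 2 peaks, and in 935 of all 3531 Runx1 peaks (26.5%) against 522 (14.8%) of positions 1 kb away. The promoter peak had no match, nor did it have one for the longer TGTGGTT (13.0% of all peaks), for the form that accepts C or T at the third base (33.6%), or within 250 bp of its centre (40.7%). The nearest TGTGGT was 1897 bp from the centre, at chr17:51970724-51970729 on the plus strand inside the gene; 178 peaks (5.04%) had their nearest match at this distance or farther, and the median was 367 bp. No TGTGGT lay between the distal start site and the LUAT, or between the distal and proximal start sites. Absence of the motif was common both at start sites, where 61 of 270 peaks had it (22.6%), and elsewhere, where 874 of 3261 did (26.8%). The downstream peak held TGTGGT at chr17:51546498-51546503 on the plus strand, 22 bp from its centre, as part of TGTGGTT, and the windows of the same width 1 kb to either side of it each held 1 match. A match this close was found in 343 peaks (9.71%). Within 1 kb of the downstream peak there were 4 matches, and within 1 kb of the promoter peak there were 0.

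Motifs of other factors that act in thymocytes were searched in the same windows. ETS factors, which often bind beside RUNX proteins, recognise AGGAAG, a sequence present in 33.5% of all peaks and 22.6% of positions 1 kb away. The promoter peak had a match on the plus strand at chr17:51972602-51972607, 19 bp from the centre and in the first exon, and another on the minus strand at chr17:51972525-51972530, just outside the 187 bp of the peak. The downstream peak had 1 ETS match, 44 bp from its centre. The E-box CACCTG, a sequence bound by E proteins such as E2A and HEB and found in 26.1% of peaks and 16.3% of positions 1 kb away, occurred once in each of the peaks: at chr17:51972609-51972614, 12 bp from the centre of the promoter peak, and at chr17:51546465-51546470, 55 bp from the centre of the downstream peak. For each of the peaks CACCTG also occurred once in the window 1 kb to the side of lower coordinates, and 0 times in the one of higher coordinates. The ETS and E-box matches of the promoter peak were side by side, separated by 1 base, and did not overlap. Other searches gave little: the GATA sequence AGATAA occurred once, 97 bp from the centre of the downstream peak and outside its 187 bp, with 6.34% of all peaks and 11.8% of positions 1 kb away holding it. Neither peak held the E-box CAGCTG, the TCF/LEF sequence CTTTGA or the Ikaros sequence TGGGAA, which were found in 21.0%, 14.2% and 17.5% of all peaks and in 10.8%, 14.0% and 17.5% of positions 1 kb away. A match is a run of letters and not a measured binding site.

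No input peak overlapped either peak. Of all 3531 Runx1 peaks, 35 (0.991%) were overlapped by an input peak by at least 1 bp, so nearly the whole list lacked overlap. The study's methods describe peak calling that required enrichment over input, which by itself limits such overlap. The nearest input peak was 1263 kb from the promoter peak and 837 kb from the downstream peak. An input peak within 500 kb was found for 619 Runx1 peaks (17.5%) and for 3460 genes (15.6%), so the lack of one around Satb1 was the common case.

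The downstream peak was 329 kb beyond the 3' end of Satb1 and 426 kb from the distal start site. The nearest protein-coding gene was not Satb1 but Tbc1d5, which encodes a Rab GTPase-activating protein and lay 228 kb from the peak centre. A distance of over 200 kb from any protein-coding gene was found for 267 of all peaks (7.56%), and one at least as large as here for 240 (6.80%). Satb1 was the only gene of any type annotated within the 500 kb on each side of its body. Tbc1d5 was 557 kb away on the downstream side with no Runx1 peak in its 446 kb, and Kcnh8, which encodes a potassium channel, was 892 kb away on the upstream side with 1. The promoter and downstream peaks were each other's nearest neighbours at 426 kb, a distance reached by 756 peaks (21.4%), and the median over the list was 130 kb.

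The 500 kb limit divided the peaks clearly on one side and narrowly on the other. The downstream peak was 171 kb inside it. The next peak on the upstream side (score 21, a score reached by 38.7% of peaks) was 518 kb from the distal start site and 18.2 kb outside the limit, 487 kb past the far end of the LUAT. Its GC content was 47.6%, it held 3 CpG dinucleotides, and it had TGTGGT 23 bp from its centre at chr17:52490788-52490793. On the other side the next peak, at chr17:50609751-50609937 with a score of 23, was 1266 kb from the body, near Plcl2, and had TGTGGT 12 bp from its centre. The promoter peak thus stood alone between a gap of 426 kb on the gene side and one of 518 kb on the side of the LUAT.

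**Figure D3:**
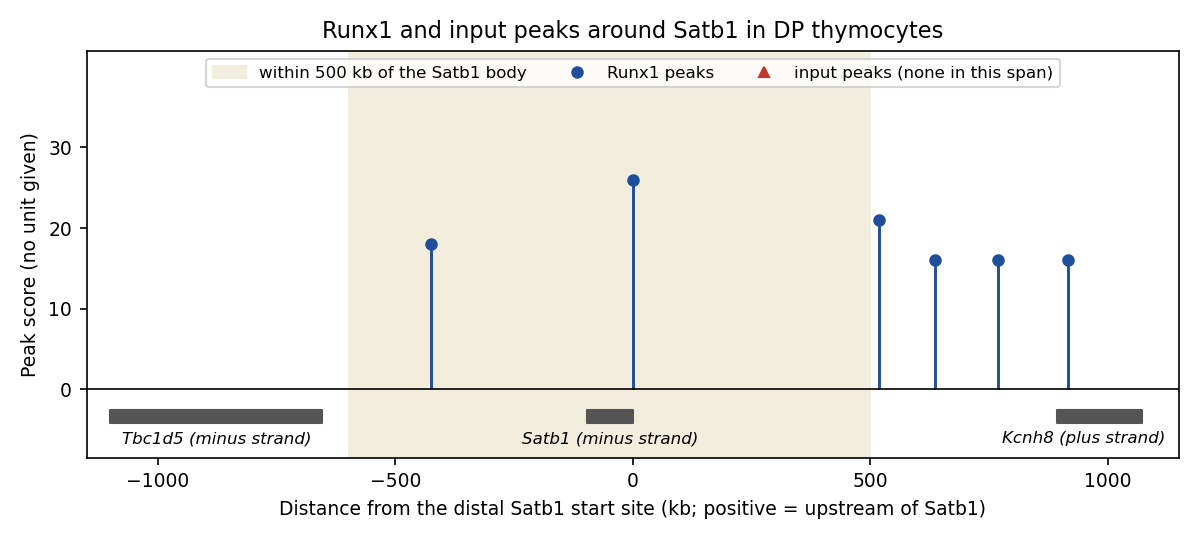
The y axis gives the score of each Runx1 peak, which has no unit, and the x axis its distance in kb from the distal Satb1 start site (positive upstream), with the region within 500 kb of the Satb1 body shaded and gene bodies as grey bars. The promoter peak at 26 and the downstream peak at 18 are inside the region, and 4 peaks with scores of 16 to 21 lie between 500 kb and 1 Mb upstream.

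At least 2 peaks within 500 kb of the body were found for 12418 of 22247 protein-coding genes (55.8%), and exactly 2 for 3666 (16.5%), with a median of 2 and quartiles of 1 and 3. When peaks below the median score were left out, Satb1 kept 2 peaks and 33.9% of genes had at least as many. Windows of neighbouring genes share peaks, so these genes are not independent. The density in the Satb1 region was 1.82 peaks per Mb, against 1.72 on chromosome 17, which had 164 peaks, and 1.33 in the genome. The gene-poor setting was unusual: 131 genes (0.589%) had no other protein-coding gene within 500 kb. This set was defined after the data had been seen. Of the 131, 22 had at least 2 peaks (16.8%, Clopper-Pearson 95% interval 10.8 to 24.3%), and Satb1 is 1 of the 22 by construction. Over the 131 the median was 0 and the maximum 4. A peak centre within 100 bp of a start site was found for 1 of the 131 (0.763%), which was Satb1 itself. Satb1 was taken with this peak known, so the count could not be 0.

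**Figure D4:**
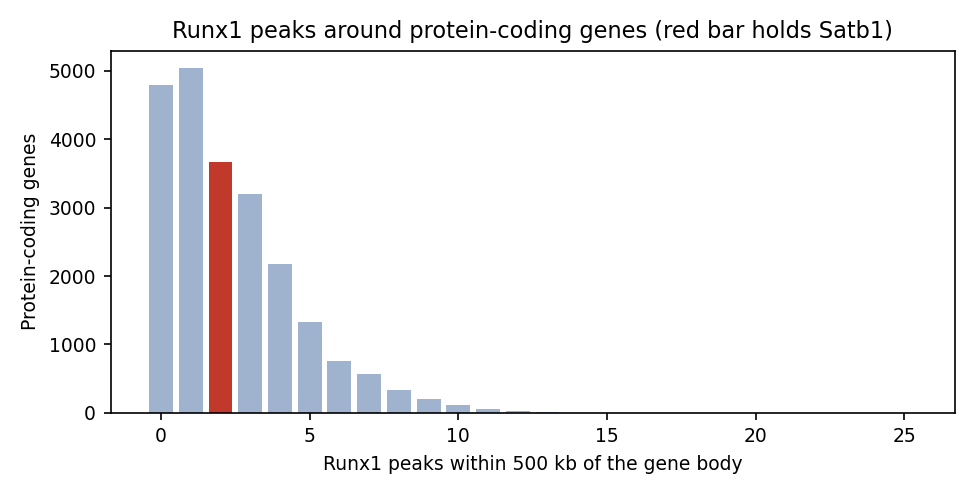
Each bar gives the number of protein-coding genes (y axis) with the number of Runx1 peaks on the x axis within 500 kb of the body. The red bar at 2 peaks holds Satb1 among 3666 genes, and the distribution reaches 25 peaks.

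Satb1 was set beside 2 lists of genes. The lists were chosen with earlier results of these data known. Of the 10 other T-cell regulators with a LUAT that were analysed, 9 could be placed (Gfi1 is not listed as protein-coding in the annotation), and 1 of the 9 had a Runx1 peak within 5 kb of a start site (11.1%, against 5.01% of all genes). This was Tcf12, which encodes the E protein HEB and had a peak 921 bp downstream with a score of 35. Like the Satb1 promoter peak, it had no TGTGGT within 100 bp of the centre, a match that 26.5% of all Runx1 peaks held. The median distance to the nearest peak over the 9 genes was 68.3 kb, and they had 0 to 9 peaks within 500 kb (median 3), with 5 genes above the 2 of Satb1, 1 equal and 3 below. Over all protein-coding genes, 39.3% had more peaks than Satb1, 16.5% as many and 44.2% fewer.

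The other list held 11 genes at which SATB1 is known to act in thymocytes or regulatory T cells, and 3 of them (27.3%) had a peak within 5 kb, against 5.01% of all genes. Cd8a, a coreceptor gene, had a peak 12 bp upstream of a start site with a score of 26, the same score as at Satb1, and without TGTGGT. Rag1, which encodes a subunit of the V(D)J recombinase, had a peak 108 bp upstream with a score of 40 and with TGTGGT. Cd4 had one 2019 bp downstream with a score of 16 and with the motif. The median distance over the list was 32.4 kb, and 9 of the 11 genes had more peaks within 500 kb than Satb1, against 39.3% of all genes, with a range of 0 to 13 and a median of 6. Some genes of this list are neighbours on a chromosome and share peaks, so they are not independent. Among Satb1 and the placed genes of both lists, the peak at Satb1 was the one nearest to a start site, followed by that at Cd8a. The distance was the smallest over all start sites of a gene, so genes with more starts had more chances of a near one. Satb1 had the most transcripts with an annotated start among these genes, 13 (some sharing a start) against 1 to 12. The median over all protein-coding genes was 2.

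**Figure D5:**
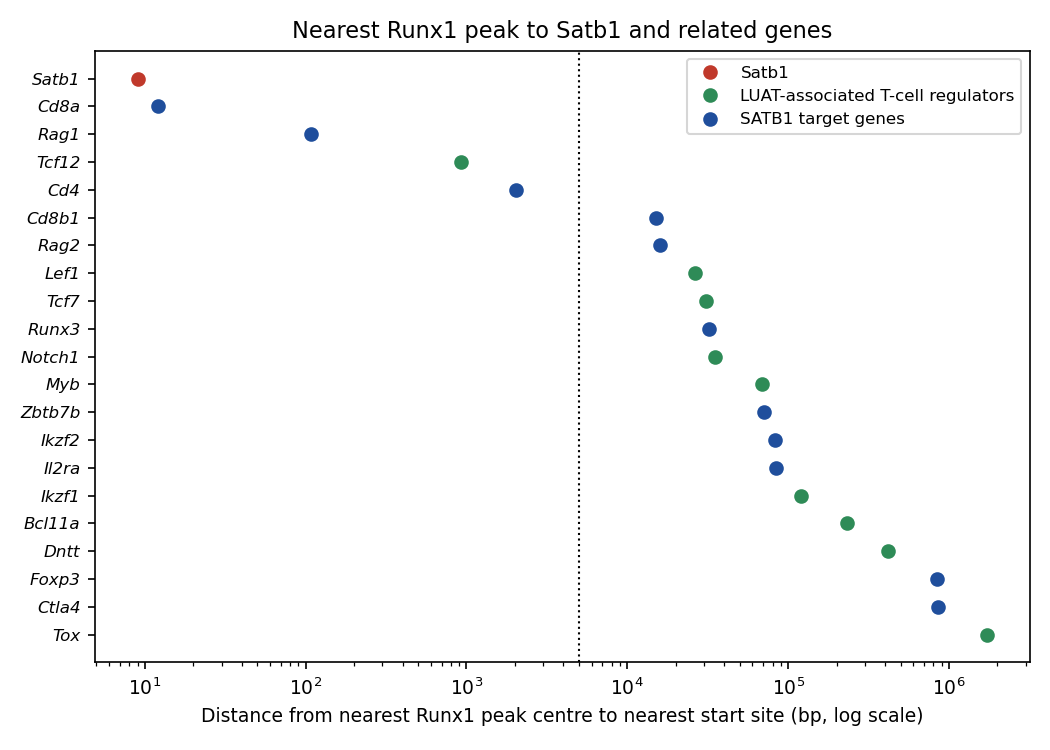
The x axis gives, on a log scale, the distance in bp from the nearest Runx1 peak centre to the nearest start site of each gene on the y axis, coloured by list, with a dotted line at 5 kb. Satb1 at 9 bp and Cd8a at 12 bp are the lowest, and Rag1, Tcf12 and Cd4 are the other genes left of the line.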

How the data were processed

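Runx1 ChIP and input of DP thymocytes were analysed, with 1 library each. The authors deposited peak positions with a score for every peak, whose meaning is not named in either list. HOMER is named in the submitters' processing notes. The study's methods describe it at default settings, which required enrichment over the local background and over input. The aligner and the calling of peaks on input are not given in the sources used here. Depth is unknown, as the lists hold no counts.

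Positions were converted to 1-based coordinates of mm9 (NCBIM37), and genes were taken from GENCODE release M1 (22247 protein-coding genes, mitochondrial genes left out). The proximal and distal Satb1 start sites and the LUAT models were placed from the study's supplementary lists, whose own expression values and coordinates are not reported. The Satb1 members and the gene lists were chosen with earlier results of these data known. Named genes were Satb1, the protein-coding genes within 500 kb of it, and for comparison T-cell regulators with a LUAT and genes at which SATB1 acts, of which at most 4 per list with the nearest peak were named. Some genes of this rule are not reported here. Tbc1d5, Kcnh8 and Plcl2 fall outside this rule and were named, after their positions were seen, as neighbours. Motifs were searched as exact letters on both strands within 100 bp of the peak centre and, over the whole list, at the point 1 kb away at higher coordinates, and the nearest TGTGGT up to 5 kb. Shares were given exact Clopper-Pearson intervals where printed. No comparison was tested. Counting and motif search were checked on simulated data. Python 3.11.15, numpy 2.4.6, pandas 2.3.3, scipy 1.17.1, pysam 0.24.0 and matplotlib 3.10.9 were used. Alternatives concerned the distance, the placing and score of peaks, input peaks, the motif and the LUAT model.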

Additional observations from a re-analysis of the deposited data

How the results depend on the processing

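Of 24 alternatives, 15 were counted as leaving the value as reported. Among these was the distance to the proximal start site from the nearest edge, which was 559 instead of 652 bp. The values are counts, distances and shares, which have no direction to reverse. The locus held 1 peak within 100 kb and 1 within 250 kb of the body, 6 within 1 Mb, and 1 when peaks below the upper quartile of score were left out, changes that follow from how the region or list was built. Taken from the nearest edge, the distance to the distal start site was 0 bp instead of 9. With the LUAT model from DN thymocytes, 1 peak lay inside the LUAT instead of 0; the multi-tissue model, added after the data were seen, gave 0. The share of genes with at least as many peaks as Satb1 was 38.7% within 100 kb of the body, 54.5% within 500 kb of the start of the longest transcript and 33.9% with peaks at or above the median score, against 55.8%. The motif count was 1 and the count of input overlaps 0 under every alternative run. No paired analysis was possible because there was a single library of each kind, and no replicate could be left out. Without read counts, a weak site around Satb1 cannot be told apart from an absent one.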

Other observations

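Between 500 kb and 1 Mb upstream of the distal Satb1 start site there were 4 Runx1 peaks, where the 1 Mb on the other side of the body held only the downstream peak. They lay 518, 635, 768 and 916 kb upstream, with scores of 21, 16, 16 and 16. The number of TGTGGT matches within 100 bp of the centre was 1, 2, 0 and 0. The last, at chr17:52888432-52888618, was inside Kcnh8, and the others were in the intergenic region. The nearest input peak to any of the 4 was 621 kb away.

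GC skew, the excess of G over C divided by their sum on the strand of the gene, was computed after the data were seen. In the 500 bp upstream of the distal Satb1 start site it was 0.0288, and in the 500 bp downstream 0.00775. Over 22247 protein-coding genes the medians were -0.00448 upstream (quartiles -0.0849 and 0.0787) and 0.0438 downstream (quartiles -0.0392 and 0.121). Both values of Satb1 were within the quartiles.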
